A study of Homo sapiens with 6 samples.

Results

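A set of 10 genes whose products restrain immune cells were examined in a melanoma cell line: CD274, PDCD1LG2, CD276, VTCN1, LGALS9, CD47, CD200, NT5E, ENTPD1 and IDO1. They were taken as a named list of immune checkpoint ligands and not by a rule on their values, though with earlier results of these data known. All 10 of 10 were measured among 18417 genes tested. Each was read by 1 probe set, the only one of its symbol. The tested cells were 3 IDTC colony samples of WM164, a BRAF-mutant melanoma line, kept for 60 days in 500 nM PLX4032 (vemurafenib, an inhibitor of mutant BRAF kinase) and described by the submitters as resistant. The reference was 3 parent samples of the same line, labelled as untreated controls and, per the series title, given DMSO. Both groups were grown in RPMI medium with fetal calf serum, and each sample was hybridised to a 1-colour Affymetrix array of whole transcripts. The comparison asks how the colonies differed from the parent cells. The study used a single line, and the labels do not say whether each colony sample was a separate clone or culture, so the spread behind each p-value is that between these 3 samples and may be technical.

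Checkpoint ligands are surface or secreted proteins through which one cell lowers the activity of another. The list also holds the enzymes ENTPD1, NT5E and IDO1, which are not ligands in this sense. CD274 (PD-L1) and PDCD1LG2 (PD-L2) bind PD-1 on T cells, while CD276 (B7-H3) and VTCN1 (B7-H4) are members of the same B7 family. LGALS9 (galectin-9) binds TIM-3, CD47 binds SIRPA on macrophages and signals them not to engulf the cell, and CD200 binds CD200R1 on myeloid cells. ENTPD1 (CD39) and NT5E (CD73) are enzymes that act in sequence on extracellular ATP to make adenosine, which dampens T cells, and IDO1 degrades tryptophan to kynurenine. In melanoma, CD274 and IDO1 are known as genes induced by interferon-gamma. The samples are of a cultured line, so the values describe transcripts of the melanoma cells and not an encounter with immune cells.

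NT5E fell 6.60-fold in colonies, the only one of the 10 genes past 2-fold, as were 5.41% of all genes. CD276 fell 1.67-fold and CD47 rose 1.49-fold. PDCD1LG2 rose 1.27-fold from a low level, a call that ended when any 1 of 4 arrays was left out. CD274, VTCN1, LGALS9, CD200, ENTPD1 and IDO1 did not pass the test. Thus 2 genes were higher, 2 lower and 6 not past the test (limma, adjusted p under 0.05 over all 18417 genes), against 43.8% of all genes called in either direction, 20.9% higher and 22.9% lower. The median log2 difference of the 10 genes was -0.02, against -0.0042 over all genes.

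The share of genes called depended on how bright they were. Of genes whose mean lay above that of the median gene (7.02 on the log2 scale), 68% passed the test, against 19.5% of the others. CD276, CD47 and NT5E lay above it and all 3 passed. The other 7 lay below it, and 1 of them, PDCD1LG2, passed. The number called was thus close to the background.

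**Figure D1:**
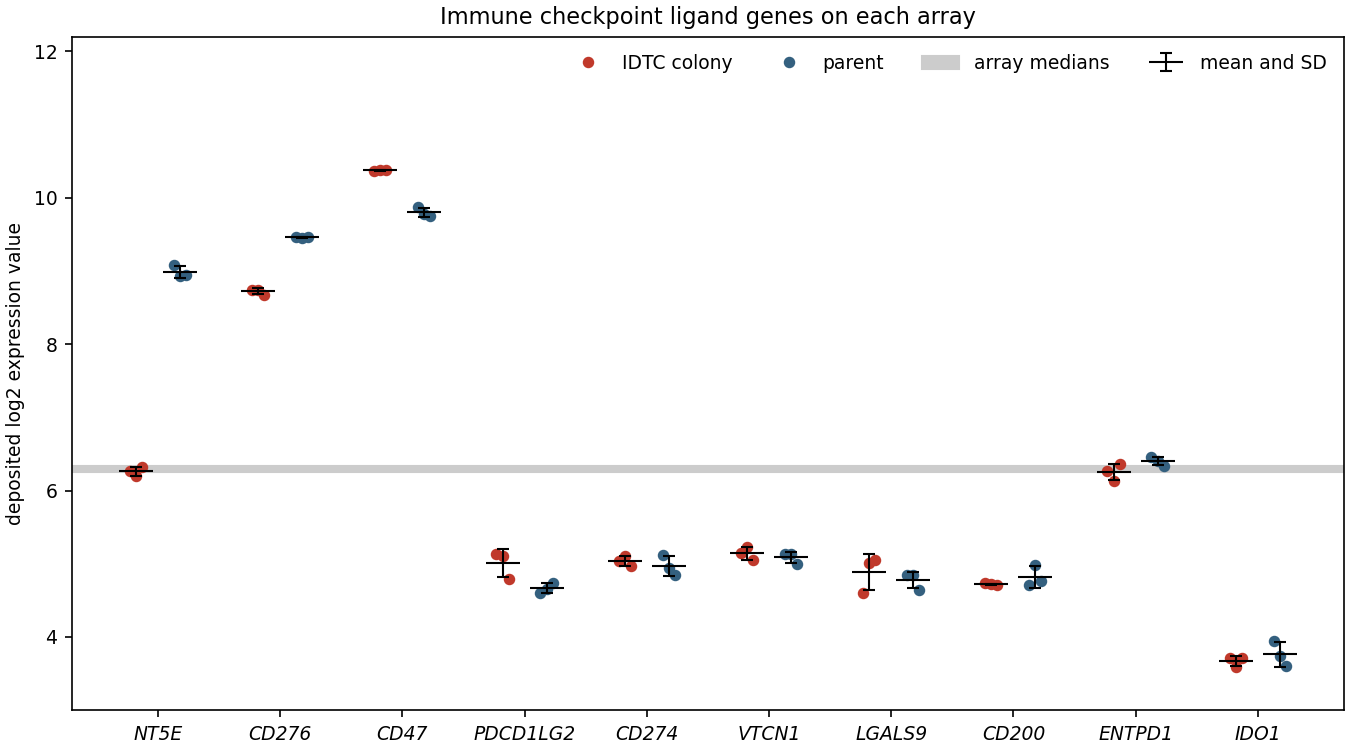
Deposited log2 expression value of each of the 10 genes (y axis) on the 3 IDTC colony arrays (red, left of each pair) and the 3 parent arrays (blue, right), with bars for the mean and SD and a grey band for the array medians (6.25 to 6.34). NT5E and CD276 sit lower and CD47 higher in colonies without overlap; heights are not comparable between genes, since each probe set has its own response.

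The upstream sequences of 4 genes are shown because 3 of them carried the clearest differences and the fourth, CD274, is the best known interferon target of the group. They are the 250 bases before the start site, taken from RefSeq (GRCh38.p14), 5′ to 3′ on the strand of the gene, with motif matches in capitals. The RefSeq table held 8 of the 10 genes with 13 start sites, and CD276 is shown for 1 of its 2. PDCD1LG2 and IDO1 are named only.
NT5E, chr6:85449833-85450082, plus strand: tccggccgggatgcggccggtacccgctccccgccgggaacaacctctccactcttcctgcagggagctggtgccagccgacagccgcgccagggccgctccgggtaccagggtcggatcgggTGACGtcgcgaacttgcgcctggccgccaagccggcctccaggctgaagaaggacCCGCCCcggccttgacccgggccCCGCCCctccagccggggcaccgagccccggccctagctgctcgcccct
CD276, chr15:73684133-73684382, plus strand: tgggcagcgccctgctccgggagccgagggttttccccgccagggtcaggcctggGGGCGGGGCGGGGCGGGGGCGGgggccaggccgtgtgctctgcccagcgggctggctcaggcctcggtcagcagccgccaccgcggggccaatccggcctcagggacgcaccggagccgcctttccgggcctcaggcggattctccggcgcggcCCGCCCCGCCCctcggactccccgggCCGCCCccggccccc
CD47, chr3:108091032-108091281, minus strand: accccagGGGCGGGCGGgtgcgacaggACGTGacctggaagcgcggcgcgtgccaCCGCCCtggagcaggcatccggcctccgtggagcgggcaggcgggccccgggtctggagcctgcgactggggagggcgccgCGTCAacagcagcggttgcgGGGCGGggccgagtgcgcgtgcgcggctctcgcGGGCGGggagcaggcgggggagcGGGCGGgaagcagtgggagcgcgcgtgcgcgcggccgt
CD274, chr9:5450292-5450541, plus strand: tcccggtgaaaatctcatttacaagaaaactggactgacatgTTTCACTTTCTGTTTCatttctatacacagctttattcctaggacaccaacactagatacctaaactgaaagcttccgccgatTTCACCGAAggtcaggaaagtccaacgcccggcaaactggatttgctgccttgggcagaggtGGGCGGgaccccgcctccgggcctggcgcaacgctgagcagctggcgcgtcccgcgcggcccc

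The motifs searched on both strands were a pair of TTTC half-sites with any 2 bases between them (interferon-response repeat), TTCNNNGAA (STAT GAS site), TGANTCA (AP-1), ACGTG (hypoxia-response core), TGACG (part of the cyclic AMP response element, which can overlap ACGTG) and GGGCGG (GC box). CD274 held 2 overlapping interferon-response repeats, starting 208 and 202 bases before the start site, and a GAS site at 125. Over 35116 promoter entries of the same length, 3.02% held the repeat and 6.57% the GAS site. The CD47 sequence held ACGTG 223 bases before the start, as did 18.5% of entries, and TGACG on the opposite strand at 114. NT5E held TGACG at 127, a match found in 21.2% of entries. All 4 printed sequences held the GC box, as did 42.6% of entries, with 7 matches in CD276, which held no other motif, 6 in CD47, 2 in NT5E and 1 in CD274. None of the 13 start sites held TGANTCA, which 6.57% of entries did. A match describes letters and not binding.

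Among the B7 family ligands, CD276 (probe set 7984743, chromosome 15), a surface protein abundant on many tumours, was at 8.75, 8.75 and 8.68 on the colony arrays, against 9.47, 9.45 and 9.46 on the parent arrays (deposited log2 values). Colonies lay below parent cells on every array. The log2 difference was -0.74 ± 0.04 (SE, n = 3 arrays per group, limma adjusted p = 8.09e-06), with a 95% interval of -0.84 to -0.64. The first 2 colony values were identical as deposited, which makes the spread look smaller than it may be.

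CD274 (probe set 8154233, chromosome 9) was at 5.03, 5.11 and 4.97 in colonies, against 5.11, 4.95 and 4.84 in parent cells. The groups overlapped, and the difference of 0.07 ± 0.08 did not pass the test (limma adjusted p = 0.52). Its 95% interval, 0.928-fold to 1.19-fold, is of the array values. The CD274 mean was under the lowest array median (6.25) in both groups, and its distance from background was not tested. The interval therefore does not bound the change in transcript.

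PDCD1LG2 (probe set 8154245), the other PD-1 ligand and the next measured gene along chromosome 9, was at 5.13, 5.11 and 4.79 in colonies, against 4.60, 4.66 and 4.73 in parent cells. The groups did not overlap, as in 50.8% of all genes, but the lowest colony value lay close to the highest parent value. The difference was 0.34 ± 0.09 (limma adjusted p = 0.0202, 95% interval 0.12 to 0.57). It did not pass without colony replicate 1 (adjusted p = 0.0774), without colony replicate 2 (0.0798), without parent replicate 1 (0.0733) or without parent replicate 2 (0.0682). The difference between PDCD1LG2 and CD274 was not tested.

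VTCN1 (probe set 7918936, chromosome 1), an inhibitory B7 protein of epithelial tumours, was at 5.15, 5.23 and 5.05 in colonies, against 5.14, 5.13 and 5.00 in parent cells. These values overlapped, and the difference of 0.05 ± 0.06 did not pass (limma adjusted p = 0.57).

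Of the ligands outside the B7 family, CD47 (probe set 8089299, chromosome 3) was at 10.36, 10.38 and 10.38 in colonies, against 9.87, 9.78 and 9.75 in parent cells. Every colony array was above every parent array. The log2 difference was 0.57 ± 0.05 (SE, n = 3 per group, limma adjusted p = 4.91e-05), a fold of 1.38 to 1.61 by its 95% interval.

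LGALS9 (probe set 8005809, chromosome 17) was at 4.60, 5.01 and 5.05 in colonies, against 4.84, 4.84 and 4.65 in parent cells. Colony replicate 1 was below all parent values, and the other colony values were above them. The difference was 0.11 ± 0.12 (limma adjusted p = 0.544), and without colony replicate 1 it was 0.25 and passed (adjusted p = 0.0454). LGALS9 has near-identical copies, LGALS9B and LGALS9C, so its probe set may read them too. CD200 (probe set 8081657, chromosome 3) was at 4.73, 4.72 and 4.72 in colonies, against 4.71, 4.98 and 4.77 in parent cells, a difference of -0.10 ± 0.07 that did not pass (limma adjusted p = 0.354). The means of both genes lay below the array medians in both groups.

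Among the enzymes, NT5E (probe set 8120967, chromosome 6), which releases adenosine from extracellular AMP, was at 6.27, 6.20 and 6.32 in colonies, against 9.08, 8.93 and 8.95 in parent cells. The gap between the groups far exceeded the SD within them, 0.06 in colonies and 0.08 in parent cells. The log2 difference was -2.72 ± 0.06 (n = 3 arrays per group, limma adjusted p = 1.33e-07), with a 95% interval of -2.86 to -2.59. It ranked 43 from the lowest among the 18417 differences, where 2.76% of genes were called lower by at least 2-fold. The colony level lay within the range of the array medians (6.25 to 6.34), and how much of it was background was not tested. In bulk RNA, fewer cells with the transcript and less of it per cell cannot be told apart.

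ENTPD1 (probe set 7929511, chromosome 10), the enzyme before NT5E in the same sequence, was at 6.26, 6.13 and 6.36 in colonies, against 6.45, 6.40 and 6.34 in parent cells. The groups overlapped by 1 array each. The difference of -0.15 ± 0.07 did not pass (limma adjusted p = 0.131), with a 95% interval of -0.31 to 0.01, and it passed without colony replicate 3 (-0.20, adjusted p = 0.0497). IDO1 (probe set 8146092, chromosome 8) was at 3.72, 3.59 and 3.71 in colonies, against 3.94, 3.74 and 3.60 in parent cells, the lowest parent value lying among the colony values. Its difference was -0.09 ± 0.09 (limma adjusted p = 0.482, 95% interval -0.30 to 0.12). Over the 6 genes that did not pass, the 95% intervals ran from -0.31 to 0.40 in array value, the upper end being 1.32-fold. The distance of these genes from background was not tested, so the intervals do not bound the change in transcript.

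**Figure D2:**
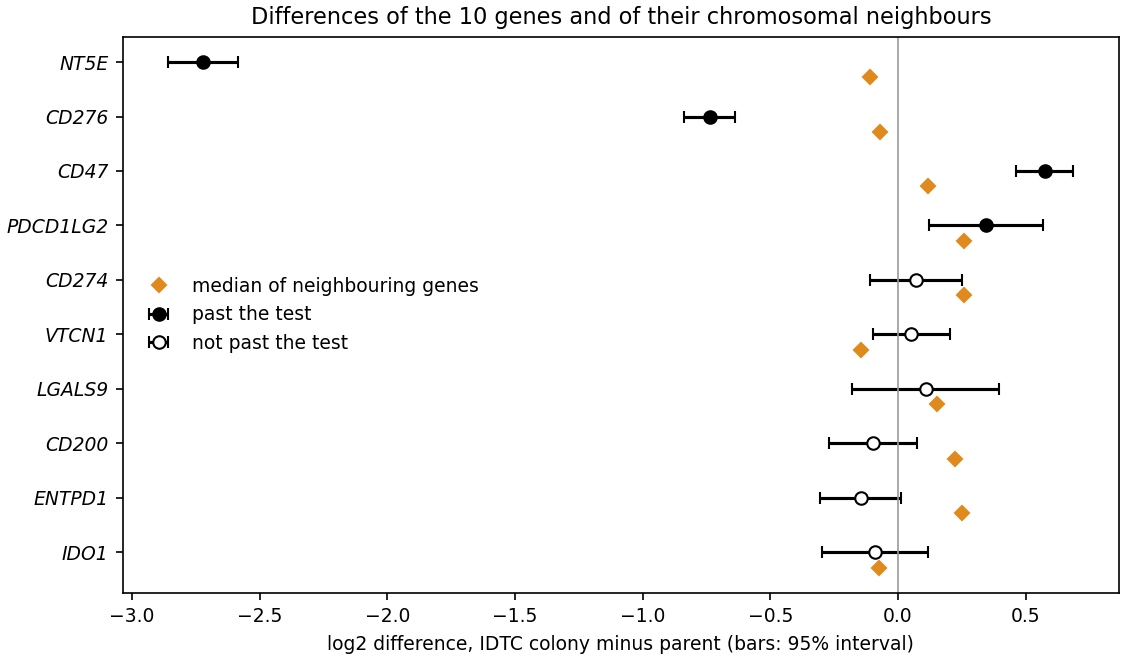
Log2 difference, IDTC colony minus parent (x axis), of each of the 10 genes with its 95% interval; filled points passed the test and orange diamonds give the median difference of the nearest 50 brighter genes on the chromosome (34 for CD274 and PDCD1LG2). NT5E at -2.72 stands far from its neighbours' median of -0.11, whereas PDCD1LG2 at 0.34 lies near its own, 0.26.

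The neighbours along the chromosomes were read beside each difference, since blocks of neighbouring genes can shift together. Around NT5E, the median difference of the 50 nearest genes above the median expression was -0.11. The flanking genes TBX18 (-0.41) and SNX14 (0.24), a developmental transcription factor gene and a sorting nexin gene, went opposite ways. CD276 had a neighbourhood median of -0.07. Of the genes beside it, NPTN, an adhesion molecule gene, fell too (-0.48), and INSYN1 did not pass (0.09). CD47 had a neighbourhood median of 0.12. Of the genes beside it, BBX fell (-0.28) and IFT57 did not pass (-0.10). With these medians subtracted, the differences were -2.61 for NT5E, -0.67 for CD276 and 0.46 for CD47, and all 3 passed the test. The medians were subtracted from the colony values as constants. The spread within groups was therefore unchanged, and the error of the medians was not counted.

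CD274 and PDCD1LG2 lie near the end of the short arm of chromosome 9, and their 34 brighter neighbours had a median of 0.26. Of the genes beside them, PLGRKT, a plasminogen receptor gene, rose by 0.36, the guanine nucleotide exchange factor gene RIC1 by 0.88, the peptidase gene ERMP1 by 0.54 and BRD10 by 0.99. RLN1 (-0.02) and RLN2 (0.04), relaxin genes, did not pass. JAK2, the interferon receptor kinase gene of the same region, rose by 0.36 ± 0.06, beside a neighbourhood median of 0.24. The PDCD1LG2 difference of 0.34 was of the size seen among these neighbours, and the share of it that moved with the region was not tested.

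**Figure D3:**
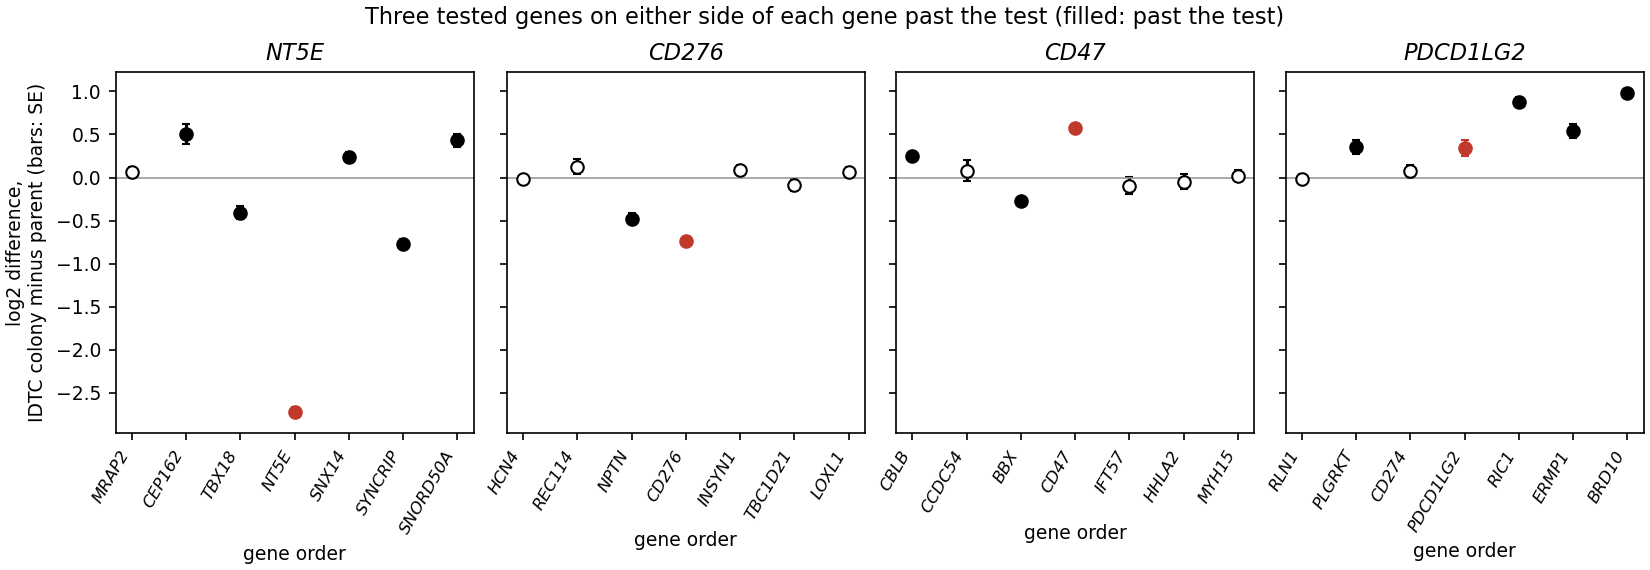
Log2 difference, IDTC colony minus parent (y axis, bars give the SE), for the tested genes in chromosomal order around the 4 genes past the test (red); filled points passed the test. NT5E is the lowest point of its panel at -2.72, and the genes on the right of PDCD1LG2 lie between 0.54 and 0.99.

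Adenosine handling around NT5E and ENTPD1 was followed in 24 measured genes of extracellular purine metabolism, transport and sensing. There were 5 genes higher, 6 lower and 13 not past the test (median -0.01). That put 45.8% past the test, against 43.8% of all genes. ADA, the deaminase that converts adenosine to inosine, was at 9.86, 9.95 and 10.07 in colonies, against 8.68, 8.66 and 8.68 in parent cells. It was higher on every colony array, by 1.29 ± 0.06 (limma adjusted p = 3.15e-06). ADORA2B, an adenosine receptor gene of low affinity, was at 6.91, 6.81 and 6.84 in colonies, against 7.65, 7.40 and 7.57 in parent cells, a fall by 0.69 on the log2 scale (limma adjusted p = 0.000154). The nucleoside transporter genes SLC29A1 (-0.48) and SLC29A2 (-0.69) fell too.

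The largest rises of the list were in 2 genes that act elsewhere in nucleotide and lipid signalling. ENPP2, which encodes autotaxin, a secreted enzyme that mainly makes lysophosphatidic acid, averaged 10.88 ± 0.05 in colonies and 7.78 ± 0.04 in parent cells (SD, n = 3 each), a rise by 3.10. P2RX7, an ion channel gated by extracellular ATP, averaged 10.98 ± 0.02 in colonies and 8.67 ± 0.12 in parent cells (SD, n = 3 each), a rise by 2.31. ENPP1, which hydrolyses extracellular ATP to AMP and pyrophosphate, rose by 1.06. Its relative ENPP3 rose by 0.39, and of ENTPD2 to ENTPD8, relatives of ENTPD1, ENTPD6 alone passed (-0.27). ADORA2A and ADORA3 were not analysed here.

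**Figure D4:**
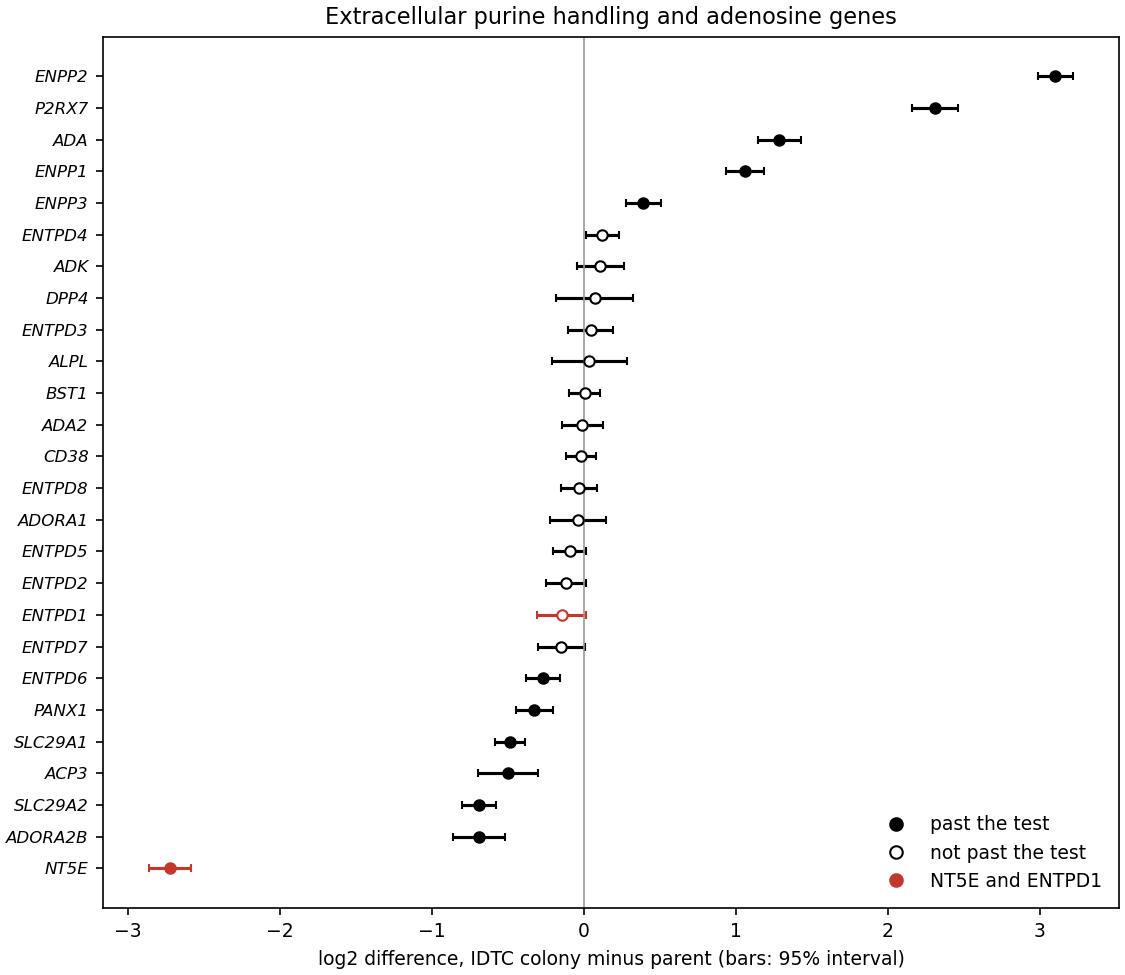
Log2 difference, IDTC colony minus parent (x axis, bars give the 95% interval), of NT5E and ENTPD1 (red) and 24 related genes, ordered from highest to lowest; filled points passed the test. ENPP2 (3.10) and NT5E (-2.72) form the ends, and ENTPD1 (-0.15) lies among the genes that did not pass.

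Downstream and beside IDO1, 19 genes of tryptophan and kynurenine metabolism were measured, of which 5 rose, 4 fell and 10 did not pass (median -0.01). That put 47.4% past the test, against 43.8% of all genes. Without parent replicate 3 the count of lower genes was 2. QPRT, which turns quinolinate into an NAD precursor, averaged 9.87 ± 0.07 in colonies and 7.80 ± 0.27 in parent cells (SD, n = 3 each), a rise by 2.07. KYAT1, a kynurenine aminotransferase gene, rose by 1.51, and AFMID, which makes kynurenine from the product of IDO1, rose by 1.24 beside a neighbourhood median of 0.42. SLC7A5, a transporter of tryptophan and other large amino acids, fell (-0.86), as did the aminotransferase gene AADAT (-0.89). KYNU (-0.01), the kynureninase gene, did not pass, at means below the array medians in both groups. AHR, the receptor that senses kynurenine, did not pass (0.07, adjusted p = 0.295) except after quantile normalization (0.13, adjusted p = 0.0446). Its target gene CYP1B1, at means below the array medians, did not pass either (0.01). The sign of CYP1B1 turned after arrays were shifted to a common median (-0.02) or quantile normalized (-0.01). IDO2, the neighbour and relative of IDO1, was at -0.04 and TDO2, which catalyses the same step, fell (-0.43), with means of 3.92 in colonies and 4.35 in parent cells that lay below the array medians.

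Upstream of CD274 and IDO1, 18 measured genes of interferon and JAK-STAT signalling included 9 that rose, 3 that fell and 6 that did not pass, with a median of 0.21. The share past the test was 66.7%, against 43.8% of all genes. Among genes above the median expression, as were 14 of the 18, it was 68%, and among the others 19.5%. SOCS3, a feedback inhibitor of JAK kinases, rose by 1.17 beside a neighbourhood median of 0.44, and IRF2, a repressor and activator of interferon-responsive genes, rose by 0.70. NFKB1, an NF-kB subunit gene, fell (-0.66) beside a neighbourhood median of -0.33. IRF1, the factor through which interferon-gamma induces CD274, was at 6.26, 6.45 and 6.46 in colonies, against 6.61, 6.28 and 6.51 in parent cells, which overlapped (-0.08 ± 0.09, limma adjusted p = 0.58).

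Of 18 measured genes that act on the PD-L1 protein after its synthesis, 4 were higher, 8 lower and 6 not past the test (median -0.07). The share past the test was 66.7%, against 43.8% of all genes. Among genes above the median expression, as were 15 of the 18, it was 68%, and among the others 19.5%. CMTM6, which keeps PD-L1 from lysosomal degradation, was at 8.11, 8.16 and 8.09 in colonies, against 8.46, 8.49 and 8.57 in parent cells. All colony arrays were below all parent arrays, by 0.39 ± 0.05 (limma adjusted p = 0.000384). COPS5, a deubiquitinating subunit of the signalosome, changed by -0.64, CUL3, a scaffold of ubiquitin ligases, by -0.50 and CSNK1A1, a kinase gene, by -0.49. For COPS5 and CSNK1A1 the neighbourhood medians were -0.32 and -0.27. Protein levels of PD-L1 were not measured.

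Partners of CD47 were read from 8 measured genes, of which 4 rose, 2 fell and 2 did not pass. That put 75% past the test, against 43.8% of all genes. Among genes above the median expression, as were 7 of the 8, the share was 68%. QPCTL, the enzyme that modifies the end of CD47 to which SIRPA binds, was at 9.72, 9.71 and 9.61 in colonies, against 8.98, 9.09 and 8.98 in parent cells. It was higher on every colony array, by 0.66 ± 0.05 (limma adjusted p = 4.43e-05). The integrin subunit gene ITGAV rose by 1.06 and its partner gene ITGB3 fell (-0.95), both being subunits of integrins that associate with CD47. BCL6, a transcriptional repressor gene, rose by 0.97. THBS1, a secreted ligand of CD47, did not pass (-0.04), at means below the array medians in both groups.

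A list of receptors and binding partners of the 10 proteins also holds the T cell receptors CD28 and CTLA4 for CD80 and CD86. It had 10 measured genes, of which 2 rose, 2 fell and 6 did not pass. That put 40% past the test, against 43.8% of all genes. SIRPA, the CD47 receptor, averaged 9.90 ± 0.04 in colonies and 9.47 ± 0.02 in parent cells (SD, n = 3 each), a rise by 0.44. SIRPG, a relative of SIRPA that also binds CD47, rose by 0.21. The neighbourhood median was 0.20 for SIRPA and for SIRPG. CTLA4, a partner of none of the 10 proteins, fell (-0.32), and P4HB, a protein disulfide isomerase that can bind galectin-9, fell (-0.20). The CTLA4 call ended without any 1 of 5 arrays, all but parent replicate 3, with adjusted p up to 0.115, and over every probe set (adjusted p = 0.0758). The SIRPG call ended without colony replicate 1 (adjusted p = 0.0693) and without colony replicate 2 (0.0505). The means of CTLA4 and SIRPG lay below the array medians in both groups. The PD-1 gene was not analysed here.

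Other ligands for T and NK cell receptors split evenly, with 8 of 32 measured genes higher, 9 lower and 15 not past the test (median 0.02). That put 53.1% past the test, against 43.8% of all genes. NCR3LG1 (B7-H6), which activates NK cells through NKp30, averaged 8.49 ± 0.02 in colonies and 9.89 ± 0.06 in parent cells (SD, n = 3 each), a log2 difference of -1.40. CEACAM1, an inhibitory adhesion receptor gene, averaged 8.78 ± 0.12 in colonies and 7.46 ± 0.00 in parent cells (SD, n = 3 each), a rise by 1.31, with 3 identical deposited parent values. TNFRSF14 (HVEM), the ligand of BTLA, rose by 1.25. PVR and its nectin relatives are adhesion proteins, of which several bind TIGIT. NECTIN2 rose by 0.74. NECTIN3 rose by 0.16 (limma adjusted p = 0.0437), beside a neighbourhood median of 0.21. PVR fell (-0.57) and NECTIN4 did not pass (0.09). CD80 (0.06) and CD86 (0.06), the ligands of CD28 and CTLA4, did not pass, at means below the array medians in both groups.

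Relatives of LGALS9, together with the galectin-binding LGALS3BP, made up 11 measured genes, of which 1 rose, 3 fell and 7 did not pass. That put 36.4% past the test, against 43.8% of all genes. The riser was LGALS3BP, so no measured galectin was called higher. LGALS8, a galectin with paired sugar-binding domains, averaged 4.82 ± 0.20 in colonies and 6.54 ± 0.12 in parent cells (SD, n = 3 each), a log2 difference of -1.72 to a level below the array medians. LGALS1, an abundant galectin that acts on T cells, changed by -0.31 and LGALS3BP, a secreted glycoprotein that binds galectins, rose by 1.09 beside a neighbourhood median of 0.42.

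**Figure D5:**
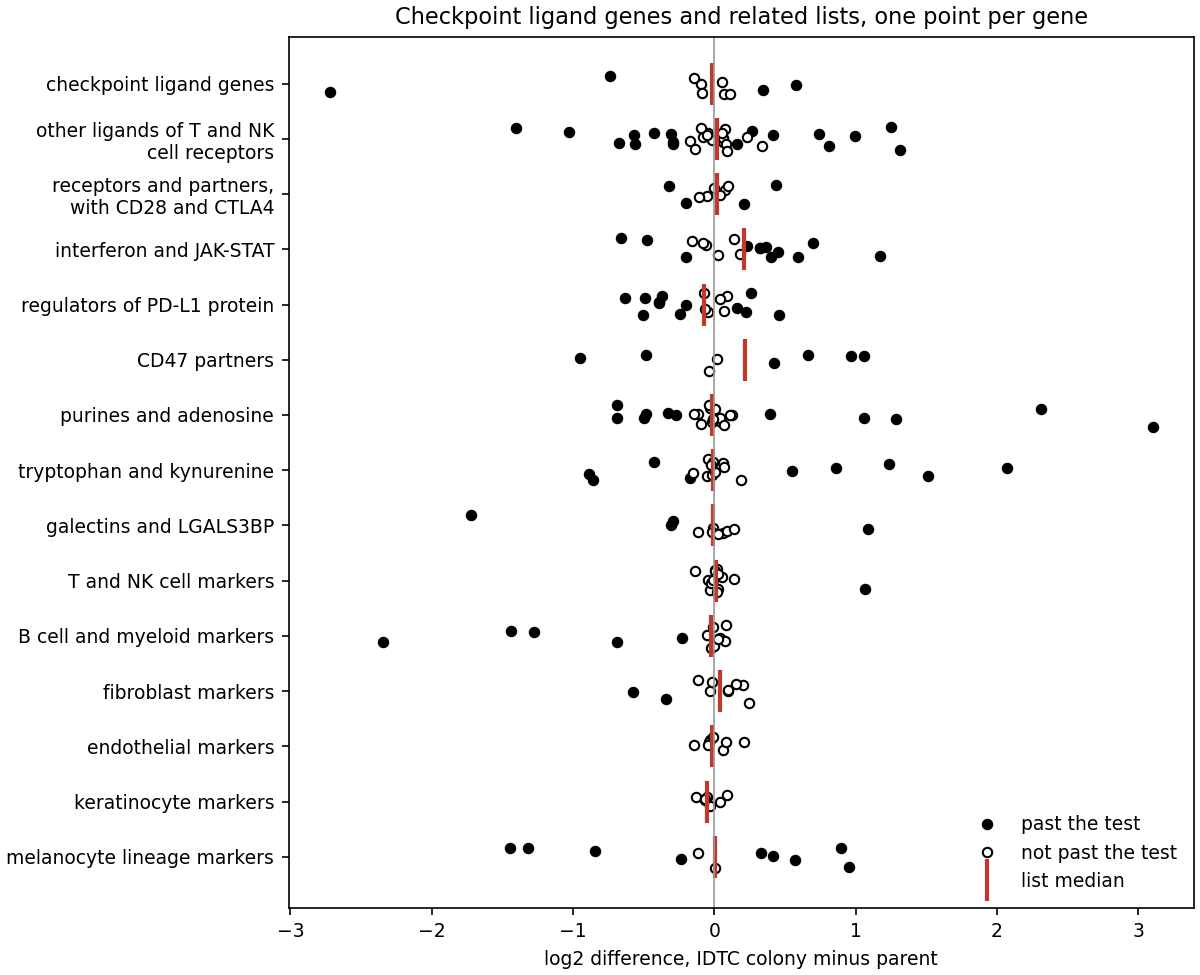
Log2 difference, IDTC colony minus parent (x axis), with 1 point per gene for the checkpoint ligand genes and 14 related lists (rows); filled points passed the test and red bars give list medians. Medians lie between -0.07 and 0.22, and NT5E at -2.72 is the lowest point of the plot.

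Markers of other cell types were read on the same arrays, since leukocytes and stromal cells also carry several of these ligands. Of 10 fibroblast markers, a cell type that also expresses NT5E, 2 fell (PDGFRA by 0.57 and LUM by 0.34) and none rose. The LUM call ended without colony replicate 1 (limma adjusted p = 0.0576). The neighbourhood medians were -0.35 for PDGFRA and -0.38 for LUM. In 5 alternatives 1 of the 10 markers was called higher: testing only genes above the median expression, a robust eBayes with a trend, the fit with the replicate block, and leaving out colony replicate 2 or parent replicate 2. Their mean log2 level ran from 5.63 to 5.68 in colonies, against 5.61 to 5.73 in parent cells. None of 8 endothelial markers passed the test. Among 14 T and NK cell markers 1 passed, NCAM1, which rose by 1.07. It is an adhesion molecule gene whose product is also made by neural crest cells. Mean levels of the 14 markers were 5.48 to 5.50 in colonies and 5.35 to 5.45 in parent cells. After quantile normalization, or without colony replicate 1, 1 of the 14 was called lower. Of 13 B cell and myeloid markers 5 fell and none rose, with mean levels of 5.83 to 5.86 in colonies and 6.25 to 6.32 in parent cells. These included LYZ (-2.35), FCER1G (-1.44) and CD68 (-1.27), while the pan-leukocyte gene PTPRC was at 3.71, 3.71 and 3.71 in colonies, against 3.71, 3.63 and 3.67 in parent cells. Past the test were 20% of the fibroblast, 7.14% of the T and NK cell and 38.5% of the B cell and myeloid markers. Over all genes the share was 43.8%, and over genes not above the median expression it was 19.5%. The part of these markers in the differences was not tested.

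Of 11 measured melanocyte lineage markers, 5 were higher in colonies, 4 lower and 2 not past the test. That put 81.8% past the test, against 43.8% of all genes. Among genes above the median expression, as were 10 of the 11, the share was 68%. The mean of each but TYRP1 lay above that of the median gene, which is a description only, since probe sets differ in their response. SOX10, a neural crest transcription factor gene, was at 11.14 in colonies and 10.73 in parent cells on average, and PMEL, a melanosome protein gene, was at 12.86 in colonies and 12.52 in parent cells. MITF, the master regulator of the lineage, averaged 11.14 in each group and did not pass, beside a neighbourhood median of -1.05. The largest differences among these markers were in MLANA (-1.45), a melanosome antigen gene, MC1R (-1.32), the melanocortin receptor gene, and PAX3, a transcription factor gene that rose by 0.95. Across genes, the correlation was 0.997 to 0.998 between arrays of the same group and 0.967 to 0.969 between a colony and a parent array. Precision is limited by there being 3 arrays per group.

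Genes whose profile over the 6 arrays was most like that of NT5E were ranked by the Euclidean distance of mean-centred log2 values. GPAT3, an acyltransferase gene of glycerolipid synthesis, was nearest at 0.143, with means of 6.72 in colonies and 9.48 in parent cells. Next came the palmitoyltransferase gene ZDHHC2 at 0.143, whose means were 4.85 in colonies and 7.67 in parent cells, and the transcriptional repressor gene BHLHE41 at 0.150, with 7.91 in colonies and 10.59 in parent cells. With 2 groups of 3 arrays this likeness mostly reflects a difference of similar size between the groups.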

How the data were processed

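Total RNA of 3 IDTC colony and 3 parent samples of WM164 was measured on Affymetrix arrays. The deposited file holds log2 expression values, 1 per probe set, judged from their range. Affymetrix Expression Console appears in the submitters' processing notes, but its version, background correction and normalization are not given in the sources used. Samples were grouped by title.

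Of 33297 probe sets, 19460 had 1 gene symbol in the platform annotation, 1754 had several and 12083 had none. Of those with 1 symbol, 19429 matched the reference gene table (GRCh38.p14) by Entrez ID. The probe set with the highest mean stood for each gene, leaving 18417 genes with no filter. Of these, 30.4% had identical values on some of the 6 arrays.

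Groups were compared with limma 3.58.1 (lmFit, eBayes, 2-sided, group as the only term) in R 4.3.3, and p-values were adjusted by Benjamini-Hochberg over the 18417 genes (threshold 0.05). Arrays have no read depth. The procedure was tested on simulated data. Sequences and figures were handled in Python 3.11.15.

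The 10 genes and the related lists were chosen with earlier results of these data known. Named genes were drawn from all 10 genes, the 3 largest differences past the test in each list, a set of pathway genes whatever their values, 3 neighbours on each side of a gene and the 3 profiles nearest to that of the gene with the largest difference. Further genes were picked with their values in view. Alternatives tried were other normalizations, a filter on dim genes, other uses of probe sets, trend and robust eBayes, the replicate number as a block, subtraction of the neighbourhood median (25 genes on each side, for genes above the median expression) and each array left out.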

Additional observations from a re-analysis of the deposited data

How the results depend on the processing

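The calls of NT5E, CD276 and CD47 held in all 14 alternatives, with log2 differences of -2.75 to -2.61 for NT5E, -0.76 to -0.67 for CD276 and 0.46 to 0.63 for CD47. PDCD1LG2 ranged from 0.28 to 0.45 over 12 alternatives (adjusted p 0.00143 to 0.0798), and the 2 genes called higher became 1 when only genes above the median expression were tested, which leaves it out. Leaving out each array in turn gave 1 to 2 higher and 2 to 3 lower. Leaving out each array, signs turned for values near 0: IDO1 (-0.17 to 0.00020), KYNU (-0.069 to 0.072), CYP1B1 (-0.035 to 0.029), THBS1 (-0.10 to 0.014) and MITF (-0.030 to 0.035). CYP1B1 also turned with arrays shifted to a common median (-0.021) and after quantile normalization (-0.011), and MITF with the common median (-0.024).

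No shared deviation of same-numbered colony and parent arrays was seen (correlations -0.0886, -0.0587 and -0.00962). Over any colony and parent array the correlations ran from -0.0886 to 0.113. So few arrays cannot show whether same-numbered samples were handled together, and the labels do not say. With the replicate block, 3633 genes were higher and 3931 lower, against 3849 and 4212 without it, and the counts for the 10 genes stayed at 2 and 2.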

Other observations

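Another 2 probe sets list LGALS9 together with its copies LGALS9B and LGALS9C and stayed out of the comparison. They averaged 6.12 ± 0.14 and 6.40 ± 0.12 in colonies, against 6.02 ± 0.06 and 6.33 ± 0.01 in parent cells (SD, n = 3 each). Their log2 differences were 0.10 and 0.06 and did not pass the test over every probe set (limma adjusted p = 0.428 and 0.589).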
